A study of Drosophila melanogaster with 14 samples.

Results

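HA-tagged dCTCF was mapped on chromatin in flies of the dCTCFdelta705-733 line, whose dCTCF lacks 29 residues at the positions in its name, and in flies with wild-type dCTCF, and the 2 resulting peak lists were set against each other. The members are every peak of both lists, 623 in the deletion line and 627 in wild type, 1250 in all. They rest on 5 of the 14 libraries of the series, namely 2 HA libraries of the deletion line, 2 HA libraries of the dCTCFwt line and 1 mouse preimmune library (PI_mouse) made from wt flies, which served as the control of both lists. All flies were whole adults of 2 to 3 days labelled as the Oregon-R strain, and 2 g of them gave the chromatin of a precipitation. The labels do not say how the HA tag, a short peptide recognised by an antibody, was put on dCTCF, nor whether untagged dCTCF was also present in either line. ChIP-seq sequences the DNA that an antibody recovers with its protein, and a peak is an interval with more reads than the control, with its summit at the position of the highest signal.

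dCTCF is the fly homologue of CTCF, a protein that binds DNA through a row of zinc fingers and takes part in insulators, the elements that separate neighbouring regulatory domains. In flies it is best known for its sites in the bithorax complex, where it helps to keep the regulatory domains of the homeotic genes apart. CP190 is a partner protein found at the sites of several insulator proteins including dCTCF, and the title of the series concerns dCTCF function without CP190. The 29 deleted residues lie beyond the zinc fingers, toward the C-terminal end of the protein.

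The labels name 1 list for the 2 replicate libraries of a genotype, so there is 1 list per genotype and no test between genotypes was possible. Each peak does carry intervals, summits and p-values from a pair of call sets that the authors compared, and these give the spread against which positions and widths can be read. The files do not say whether the call sets are the replicates, so this spread may or may not be one between replicates. The lists hold no read counts, so the depth is unknown. The intervals beside shares are 95% Wilson intervals, which treat peaks as the counted units and hold no error other than that of counting. In whole flies, binding in fewer cells and weaker binding in each cell cannot be told apart.

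The protein with the deletion was found at most of the places where the wild-type protein was found, and the summits of overlapping peaks lay a median of 10 bp apart. Of the deletion HA peaks, 519 of 623 (83.3%, interval 80.2 to 86.0) overlapped a wild-type HA peak by at least 1 bp. Of the wild-type HA peaks, 528 of 627 (84.2%, interval 81.1 to 86.9) overlapped a deletion HA peak. The lists covered 937 kb in the deletion line and 596 kb in wild type, and 470 kb lay in both, which is 50.2% of the deletion bases and 78.8% of the wild-type bases. At the level of genes, a summit lay in or within 1000 bp of 709 of the 13922 protein-coding genes in the deletion line (5.09%) and of 750 in wild type (5.39%). The 619 genes found in both lists were 87.3% of the deletion genes and 82.5% of the wild-type genes.

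Sharing followed the strength of the peaks closely. The authors' fold enrichment over the preimmune library ran between 3.01 and 531 in the deletion list (median 35.9) and between 2.02 and 85.6 in the wild-type list (median 10.3), and is used here to order the peaks within a list. Values of the 2 lists that stand side by side are on different scales and are not a comparison of binding. With each list cut by fold enrichment into 10 bins of 62 or 63 peaks, bin 1 being the strongest, 311 of 311 deletion peaks in bins 2 to 6 had a wild-type partner (lower bound 98.8%). All 376 wild-type peaks in the 6 strongest bins had a deletion partner (lower bound 99.0%). Below that, the share dropped step by step in both lists, to 16 of 63 deletion peaks (25.4%, interval 16.3 to 37.3) and 11 of 63 wild-type peaks (17.5%, interval 10.0 to 28.6) in the weakest bin. Bin 1 of the deletion list was the exception, with 54 of 62 peaks shared (87.1%, interval 76.6 to 93.3).

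**Figure D1:**
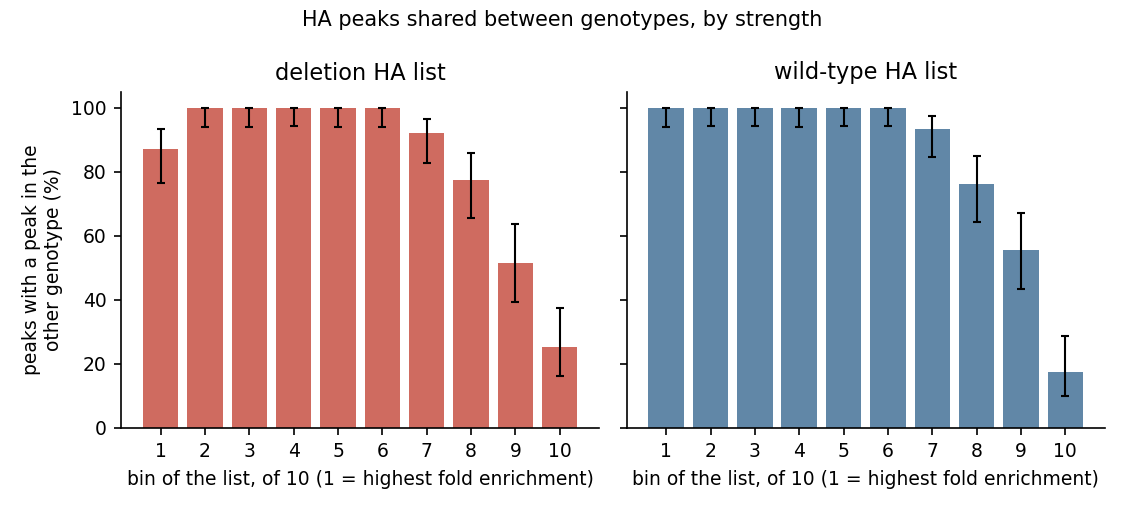
Share of HA peaks with an overlapping peak in the other genotype, in percent, by bin of fold enrichment in the deletion list (left) and in the wild-type list (right), with 95% Wilson intervals as bars. The share stands at 100% in bins 2 to 6 of both lists and drops to 25.4% (deletion) and 17.5% (wild type) in the weakest, and bin 1 of the deletion list stands at 87.1%.

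Overlapping peaks that were each other's nearest summit gave 519 pairs. Both lists share the preimmune library, so their places are given side by side, with no correlation. The median place of the wild-type partners was 34 for deletion peaks of bin 1, 94 for bin 2 and 152.5 for bin 3. It was 222, 284 and 334 for bins 4, 5 and 6, and 416.5, 449, 483 and 520.5 for bins 7 to 10.

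**Figure D2:**
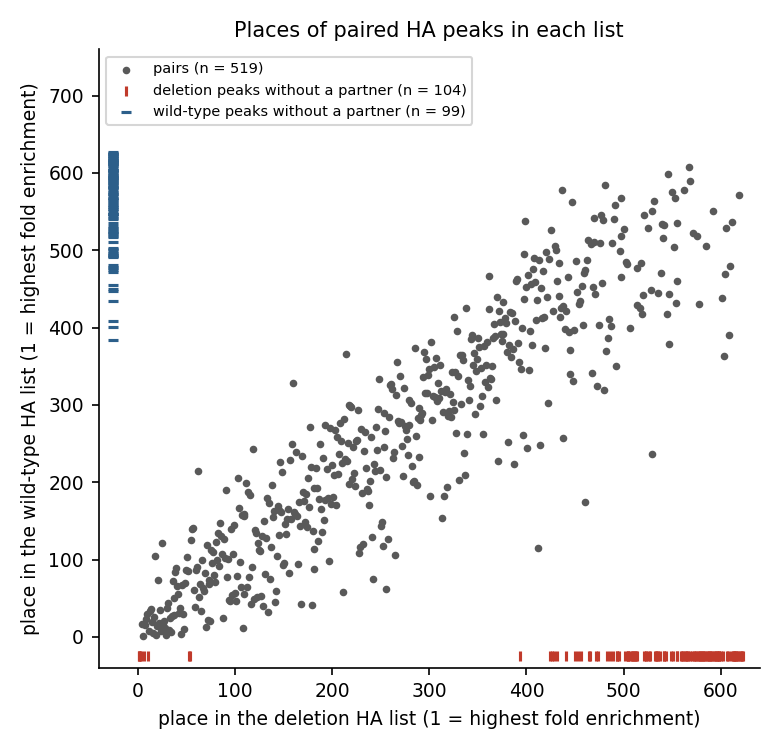
Place of each of the 519 paired HA peaks in the deletion list (x axis) and in the wild-type list (y axis), where place 1 has the highest fold enrichment. Red marks along the bottom are the 104 deletion peaks and blue marks on the left the 99 wild-type peaks without a partner, and apart from 8 red marks at the left end all of them lie at place 384 or lower in rank.

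The strongest sites of the deletion list with a partner were strong in wild type as well. The peak at 2R 15336929 to 15340694, between Hr51, which encodes a nuclear receptor, and the netrin receptor gene unc-5, was at place 5 in the deletion list and 17 in wild type. The peak at X 13561524 to 13565581 lay 231 bp from CG32633 and 233 bp from Tpst, the gene of an enzyme that sulfates tyrosines. It held place 6 in the deletion list and place 1 in wild type. At 3L 18847493 to 18851216, in an intergenic stretch beyond Indy, a citrate transporter gene, the places were 8 (deletion) and 16 (wild type). At 2R 13939902 to 13943916, between the cytoskeletal linker gene shot and DJ-1alpha, they were 9 (deletion) and 23 (wild type). At 3L 17595594 to 17598508, inside the ecdysone-induced transcription factor gene Eip74EF, they were 10 (deletion) and 30 (wild type). The pairs of these 5 sites had summits between 0 and 44 bp apart.

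The 10 strongest wild-type peaks all had a deletion partner, at place 48 or better. After the Tpst site, the next lay at 3L 21049241 to 21050404 inside siz, which encodes an exchange factor for Arf GTPases, and was at place 29 in the deletion list and 2 in wild type. The peak at X 18843243 to 18844365 lay between Pvf1, a ligand of the fly PDGF and VEGF receptor, and htk, and held place 19 (deletion) and place 3 (wild type). The peak at 3L 18019277 to 18020543 lay inside Eip75B, a nuclear receptor gene of the ecdysone response, and held place 45 (deletion) and place 4 (wild type). At 2R 14624159 to 14625137, 180 bp from the snoRNA host gene Uhg5, the places were 16 (deletion) and 5 (wild type). At 3R 11612775 to 11613996, inside Jupiter, which encodes a microtubule-associated protein, they were 34 (deletion) and 6 (wild type). At X 5882494 to 5883868, inside lncRNA:CR45668, they were 12 (deletion) and 7 (wild type). At 3L 16711260 to 16712383, between Lasp, an actin-binding protein gene, and Dab, an adaptor protein gene, the places were 24 (deletion) and 8 (wild type). At 3R 31059835 to 31061902, 324 bp from dco, the casein kinase gene of the circadian clock also called doubletime, they were 32 (deletion) and 9 (wild type). At 2R 23601231 to 23602554, between CG10332 and CG43209, they were 48 (deletion) and 10 (wild type).

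Summits of paired peaks lay a median of 10 bp apart between the deletion line and wild type (quartiles 5 and 19). Within a list, the summits of the 2 call sets of a peak lay a median of 6 bp apart in the deletion line (quartiles 2 and 11) and 11 bp apart in wild type (quartiles 5 and 24.5). These distances within a list include peaks without a partner. Over shared peaks alone, the call sets lay a median of 5 bp apart in the deletion line and 9 bp apart in wild type. The median of 10 bp between genotypes was thus above both. The median signed distance, deletion minus wild type along the chromosome, was −1 bp. Of the 519 pairs, 495 (95.4%) had summits within 50 bp and 514 (99.0%) within 200 bp.

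**Figure D3:**
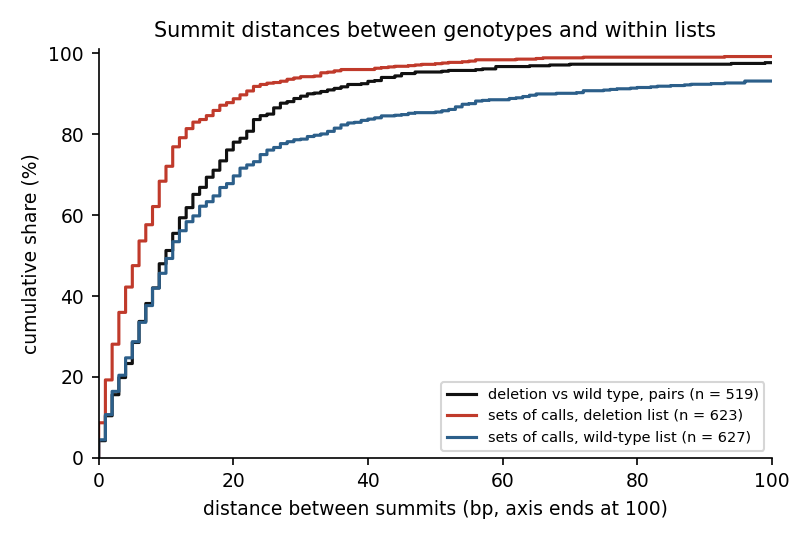
Cumulative share, in percent, of summit distances up to 100 bp, for deletion against wild-type peaks of 519 pairs (black), between the call sets of the deletion list (red, 623 peaks) and between those of the wild-type list (blue, 627 peaks). The black curve runs between the red and blue ones for most of the axis, with medians of 10 bp between genotypes, 6 bp in the deletion list and 11 bp in the wild-type list. The red and blue curves include peaks without a partner, and over shared peaks alone their medians were 5 bp (deletion) and 9 bp (wild type).

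Only 5 pairs had summits more than 200 bp apart, and in 4 of them the call sets of the wild-type peak themselves lay more than 100 bp apart. The largest distance, 425 bp, was at X 14247031 to 14247768 inside asRNA:CR46473, where the call sets lay 10 bp apart in the deletion line and 390 bp in wild type. The next, 347 bp, was at 2R 1521389 to 1523574 inside Maf1, a repressor of RNA polymerase III, where the call sets lay 886 bp apart in the deletion line and 537 bp in wild type. At 3L 2228461 to 2229364, 578 bp from Oseg2, an intraflagellar transport gene, the distance was 259 bp and the call sets lay 3 bp (deletion) and 302 bp (wild type) apart. At X 529787 to 530419 inside CG4293 it was 242 bp, with call sets 11 bp (deletion) and 154 bp (wild type) apart. At X 843156 to 844137 inside CG43867 it was 209 bp, with call sets 14 bp (deletion) and 72 bp (wild type) apart. All 5 stood at place 378 or lower in rank in both lists.

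Peaks of the deletion line were wider. Over the 519 pairs, the median width was 1261 bp in the deletion line and 802 bp in wild type, and the deletion peak was the wider one in 423 pairs (81.5%, interval 77.9 to 84.6). The median ratio of widths, deletion over wild type, was 1.53 (quartiles 1.11 and 2.24), whereas between the call sets of a list, the first over the second, it was 0.99 in the deletion line (quartiles 0.857 and 1.14) and 1.06 in wild type (quartiles 0.937 and 1.25). In 356 pairs (68.6%) the wild-type interval lay wholly inside the deletion interval. Peaks wider than 2000 bp numbered 170 in the deletion list (27.3%) and 17 in wild type (2.71%).

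The extra width was graded with the strength of the deletion peak. Pairs in bin 1 of the deletion list had a median width of 3404 bp in the deletion line and 1117.5 bp in wild type, a median ratio of 2.94, and the deletion peak was wider in 54 of 54. In bin 6 the medians were 835 bp (deletion) and 663 bp (wild type), with a ratio of 1.18. In bin 9 they were 502.5 bp (deletion) and 491.5 bp (wild type), with a ratio of 1.03, and in bin 10 they were 390 bp (deletion) and 483 bp (wild type) with a ratio of 0.893, where the deletion peak was wider in 4 of 16 pairs. The bins were cut by fold enrichment in the deletion list, where strong peaks were also wide. Over all its peaks, the median width was 3320.5 bp in bin 1 and 397 bp in bin 10. Pairs were not binned by wild-type strength, and the part of this choice in the grading was not tested. The lists also differ in the scale of their fold enrichment and in where they end, and the part of these in the widths was not tested.

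**Figure D4:**
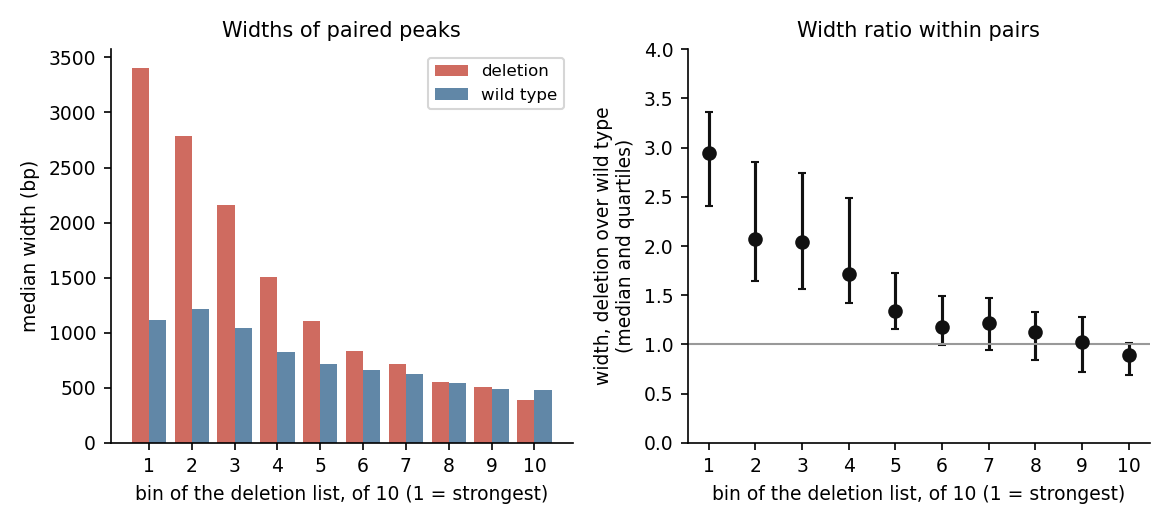
Median width in bp of paired HA peaks in the deletion line (red) and in wild type (blue), and the median width ratio within pairs with its quartiles, both by bin of the deletion list. The ratio goes down along the list, with a median of 2.94 in bin 1 and 0.893 in bin 10.

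Wide deletion peaks overlapped pairs of wild-type peaks at 9 places, and no wild-type peak overlapped more than 1 deletion peak. In each of the 9, the summit of a wild-type peak at place 255 or better lay within 23 bp of the deletion summit, and a weaker peak, with fold enrichment of 2.22 to 6.77, lay on its flank with its summit 956 to 2600 bp away. Among the 50 strongest deletion peaks there were 2 such cases. At 3L 604415 to 609333, beyond Reg-2, the deletion peak (place 20) covered wild-type peaks at places 14 and 449. Inside Eip75B, the deletion peak at 3L 18018047 to 18021524 (place 45) covered wild-type peaks at places 4 and 456. Other such flanking peaks lay inside kirre, a gene for a cell adhesion protein of muscle fusion, and in the intergenic stretches next to the aquaporin gene Drip and the potassium channel gene eag.

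Several genes had a series of HA peaks that recurred place by place, and the choice of these genes followed from their values. A peak was counted for a gene when its summit lay inside it or within 1000 bp of it, so some of these peaks lay outside the gene named. Eip75B had 4 summits in the deletion list and 5 in wild type, the most of any protein-coding gene. Its deletion peaks stood at places 33, 45, 189 and 547, and their wild-type partners at 25, 4, 165 and 379. The gene velo, which encodes a SUMO protease, had 3 in each list, at places 77, 275 and 444 in the deletion line, with partners at places 96, 273 and 394 in wild type. In raskol, a gene for a Ras GTPase-activating protein, the 3 deletion peaks at places 47, 301 and 370 had wild-type partners at 29, 182 and 440. Pde1c, a phosphodiesterase gene, had deletion peaks at 229, 324 and 413, with wild-type partners at 116, 304 and 487. Of the other protein-coding genes with at least 3 summits in a list, Antp, Trx2, tun and kirre also held only shared peaks. In contrast, sick, CG31145 and MSAmiP each held a deletion peak without a partner (places 514, 559 and 456). Abd-B held a wild-type peak without one (place 554).

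In the homeotic clusters, where dCTCF is best studied, the share of shared peaks was about that of the whole lists. In the Antennapedia complex, which specifies the head and anterior thorax, summits lay at 3 of 9 listed genes in the deletion line and at 2 of 9 in wild type, where all protein-coding genes gave 5.09% (deletion) and 5.39% (wild type). Of the peaks there, 4 of 5 in the deletion line (83.3% over the whole list) and 4 of 4 in wild type (84.2% over the whole list) were shared. The shared peaks lay in or next to Antp, the homeotic gene of the thorax, at places 84, 224 and 471 in the deletion list and 92, 195 and 443 in wild type, and at bcd, the anterior determinant of the egg, at 3R 6759262 to 6760686 with places 142 (deletion) and 59 (wild type). The peak without a wild-type partner lay at pb, the homeotic gene of the mouthparts, at 3R 6708936 to 6709174, and was weak (place 568, 4.75-fold).

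In the bithorax complex, 6 of 8 deletion peaks and 6 of 7 wild-type peaks at the listed genes were shared, against 83.3% of all deletion and 84.2% of all wild-type peaks, with the strongest inside Abd-B, the homeotic gene of the posterior abdomen, at 3R 16968549 to 16971183 (place 23 in the deletion list and 35 in wild type). The unshared ones were a peak at lncRNA:bxd (place 523) and one at lncRNA:iab8 (place 456) in the deletion line and 1 inside Abd-B in wild type (place 554).

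Few genes of the other listed groups had a HA peak, as with protein-coding genes in general (5.09% in the deletion line and 5.39% in wild type), so these small counts show nothing particular to the groups. None of the 13 insulator protein genes, CTCF and Cp190 included, and none of the 6 cohesin and condensin genes had a summit within 1000 bp in either list. Of 12 genes that Polycomb binds or that encode Polycomb proteins, such as en and hh, only Pc had one, a wild-type peak at 3L 21317901 to 21318283 with 2.50-fold enrichment (place 547) and no deletion partner.

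The 104 deletion peaks without a wild-type partner fell into 2 sets separated by a long gap. In the first, 8 peaks held places 1, 2, 3, 4, 7, 11, 53 and 54, with fold enrichment of 262 to 531 and widths of 1903 to 4581 bp. All 338 peaks at places 55 to 392 were shared, and the remaining 96 unshared ones stood at place 393 or lower in rank, with at most 17.1-fold enrichment.

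The strongest HA peak of the deletion line lay inside Tet, which encodes the fly relative of the enzymes that oxidise methylated DNA bases, at 3L 2849795 to 2854375. It had 531-fold enrichment, and the closest wild-type HA peak was 31.2 kb away. The peak at place 2 lay at X 9777187 to 9779613, 88 bp from CG1354, and that at place 3 at 3L 10897847 to 10901390, 275 bp from Aps, which encodes a phosphatase of inositol pyrophosphates. The peak at place 4 was at 3L 5868625 to 5871375, between vn, a ligand of the fly EGF receptor, and CG5568. Place 7 was at 2R 20883503 to 20885488 inside the homeobox gene otp, and place 11 at 2L 2854409 to 2858082, 4 bp from the ribosomal protein gene RpS21. Places 53 and 54 lay at 2L 14704725 to 14707649, between osp and CG15282, and at 2R 19825283 to 19827185, 145 bp from Toll-7, a Toll-family receptor gene. The last 3 of these 8 were added after their values were seen. The distance to the closest wild-type HA peak was between 11.4 and 269 kb. Their call sets placed the summits at most 11 bp apart.

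The irreproducible discovery rate (IDR), a measure of the agreement of the 2 call sets on a peak where low values mean good agreement, ran differently along the lists. The highest global IDR in the deletion list was 0.00998 and that in the wild-type list 0.0493, just under the customary limits of 0.01 and 0.05. In the deletion list the IDR was low at the top, with 0.000203 to 0.000399 at the 8 peaks just named. In the wild-type list it was high at both ends. Among its strongest 62 peaks, 10 had an IDR above 0.01, with a maximum of 0.0466. In bins 2 to 7 none did, and in the weakest 3 bins 38 did. The strongest wild-type peak of all, the Tpst site, had an IDR of 0.0326. With the wild-type list limited to 0.01, 18 more deletion peaks would lack a partner, and 8 of these stood in bin 1, among them the peaks inside siz and at Tpst. How far the wild-type limit accounts for the 8 strong deletion peaks without a partner was not tested.

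**Figure D5:**
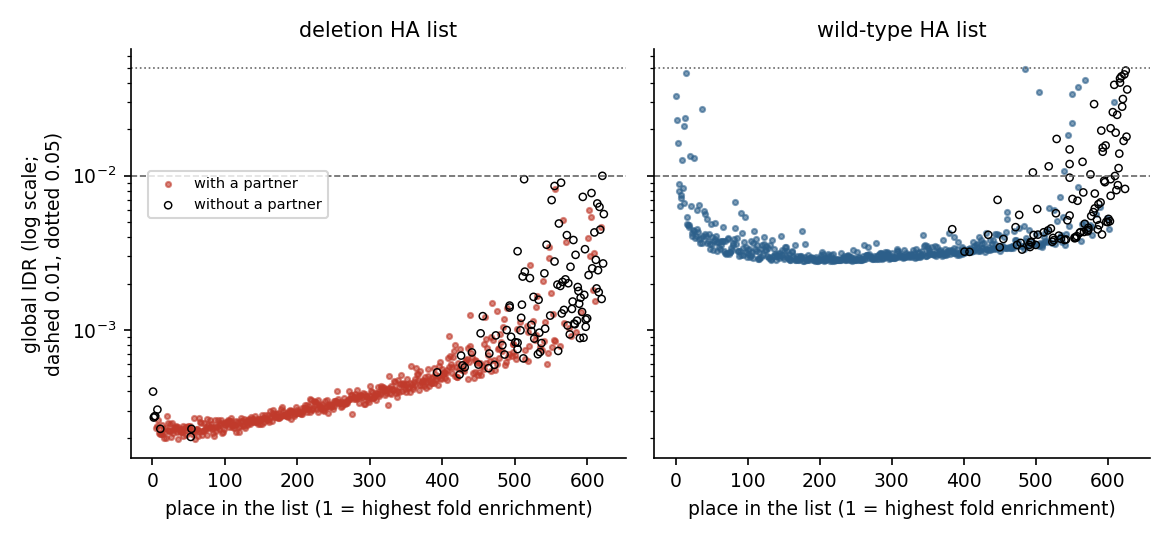
Global IDR (log axis) against place in the deletion list (left) and in the wild-type list (right), with peaks that have a partner as filled points and those without as open circles, and limits of 0.01 (dashed) and 0.05 (dotted). Deletion values are lowest near the top of the list, whereas 10 of the strongest 62 wild-type peaks lie above 0.01, up to 0.0466.

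Without the 8 strong ones, the unshared deletion peaks had a median width of 441 bp and a median fold enrichment of 5.24. Shared and unshared together, bins 8 to 10 of the deletion list had median widths of 530, 479 and 397 bp. Place 393 was the highest, with 17.1-fold enrichment at 3L 15267686 to 15268460, between the receptor gene Tollo and Best4. The closest wild-type peak to the 96 was a median of 50.5 kb away, in a list whose neighbouring summits lay a median of 119 kb apart, and at 1 of the 94 peaks on sequences that both lists cover it was within 1000 bp. Whether wild-type signal under the limit of its list lay at these places was not tested.

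The 99 wild-type peaks without a deletion partner all stood at place 384 or lower in rank. Their median width was 599 bp and their median fold enrichment 2.42, and the summits of their call sets lay a median of 58 bp apart, against 9 bp for the 528 shared wild-type peaks. Shared and unshared together, bins 8 to 10 of the wild-type list had median distances between call sets of 21, 36 and 72 bp. The strongest of the 99, 6.09-fold at place 384, was on an unplaced scaffold. The next lay at 3R 23538803 to 23539279, 149 bp from the glycosyltransferase gene Ugt303B2 (5.33-fold, place 401), and at 3R 12477319 to 12477588 in lncRNA:alphagamma-element:CR32865, between Hsp70Ba and Hsp70Bbb of the heat shock locus (4.95-fold, place 408). These were followed by 4 416033 to 416847, between mir-9385 and lncRNA:CR43437 (4.17-fold, place 434), and 3L 16050609 to 16051355, 100 bp from Diap1, the inhibitor of apoptosis (3.88-fold, place 447).

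Unshared wild-type peaks lay near gene ends more often than unshared deletion peaks. A summit lay within 200 bp of either end of a protein-coding gene in 18 of 102 unshared deletion peaks on the chromosome arms (17.6%, interval 11.5 to 26.2) and in 46 of 98 unshared wild-type peaks (46.9%, interval 37.4 to 56.7). Among shared peaks the shares were 34.3% of 516 in the deletion list (interval 30.3 to 38.5) and 36.4% of 525 in the wild-type list (interval 32.4 to 40.6). Over all peaks they were 31.6% of 618 (deletion) and 38.0% of 623 (wild type). Most unshared peaks were weak. Over the weakest 4 bins, shared and unshared together, the shares were 21.6% of 245 (deletion) and 34.9% of 249 (wild type). These bins hold every unshared wild-type peak and most unshared deletion peaks, so their shares include the difference between the unshared sets. Weak shared peaks were not set apart, so these shares cannot tell whether weak peaks differed apart from sharing. The median distance to such an end was 1674.5 bp for unshared deletion peaks and 244 bp for unshared wild-type peaks. The intervals of the unshared sets do not overlap, but peaks are not replicates of a genotype and this difference was not tested.

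Summits lay inside genes about equally often in both lists, and were spaced alike in the median. A summit lay in no gene of any kind at 350 of 618 deletion peaks on the arms (56.6%) and at 352 of 623 wild-type peaks (56.5%). Among unshared peaks, summits inside a gene made up 59 of 102 in the deletion line (57.8%) and 57 of 98 in wild type (58.2%), and among shared peaks 40.5% of 516 (deletion) and 40.8% of 525 (wild type). Over the weakest 4 bins, shared and unshared together, they made up 56.7% of 245 (deletion) and 59.4% of 249 (wild type). Most unshared peaks are in these bins, and weak shared peaks were not set apart here either. Neighbouring summits of a list lay a median of 122 kb apart in the deletion line and 119 kb in wild type, with 19 (deletion) and 28 (wild type) neighbours closer than 5000 bp.

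On the X chromosome, 107 of 133 deletion peaks (80.5%, interval 72.9 to 86.3) and 110 of 119 wild-type peaks (92.4%, interval 86.2 to 96.0) were shared. On arm 3L the shares were 115 of 136 in the deletion list (84.6%, interval 77.5 to 89.7) and 117 of 155 in wild type (75.5%, interval 68.1 to 81.6). Over the whole lists they were 83.3% (deletion) and 84.2% (wild type). Over 2L, 2R, 3L and 3R together they were 84.2% (deletion) and 82.5% (wild type). Arm 3L held 155 of the 627 wild-type peaks and 38 of the 99 unshared ones. Of these unshared peaks, 8 lay within 60 kb of the chorion genes Cp18, Cp15, Cp19 and Cp16. These are eggshell genes at 3L 8726791 to 8732599 whose region is copied many times over in the follicle cells of the ovary.

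In that window the deletion list held 2 peaks, which together covered 23.7 kb, and the wild-type list 10 peaks, which covered 52.0 kb. Both deletion peaks were shared. The one at 3L 8714533 to 8727848 (place 121), the widest of the deletion list with 13316 bp, paired with the widest wild-type peak, at 3L 8716034 to 8737156 (21123 bp, place 138), and their summits lay in the intergenic stretch before SrpRbeta, a gene for a subunit of the signal recognition particle receptor. The deletion interval overlapped Cp18 only, and the wild-type interval all 4 chorion genes. The other pair, at places 102 (deletion) and 79 (wild type), had its summits between Prm and CG13306. The 8 unshared wild-type peaks had 2.22- to 3.06-fold enrichment, and 2 of them lay inside the actin regulator gene Fhos and 1 inside the segmentation gene hry. Without this window 30 of 145 wild-type peaks on 3L were unshared (79.3% shared, interval 72.0 to 85.1). The chorion genes on X had no HA peak within 60 kb in either list.

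A few pairs stood far apart in place, in lists that differ in length by few peaks. These, too, were picked with their values known. The peak inside CG10357, at 3L 3616286 to 3616764, was at place 412 in the deletion list (13.4-fold) and 115 in wild type (33.7-fold). That beside PGRP-LA, a gene for a peptidoglycan recognition protein, at 3L 9333771 to 9334108, was at place 529 in the deletion list (6.23-fold) and 236 in wild type (17.6-fold). That between Sox21a and Sox21b, transcription factor genes, at 3L 14111390 to 14111854, was at place 460 in the deletion list (9.12-fold) and 175 in wild type (25.8-fold). In the other direction, the peak inside zip, the heavy chain of non-muscle myosin, at 2R 25010833 to 25012772, was at place 160 in the deletion list (133-fold) and 328 in wild type (9.07-fold). The peak beside the eye development gene eya, at 2L 6525862 to 6528408, was at place 62 in the deletion list (244-fold) and 214 in wild type (20.4-fold). Places in lists made and limited separately do not measure a change in binding.

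No pair met the overlap limit of 1 bp narrowly. The smallest overlap among shared peaks was 197 bp, at 3L 6709074 to 6709290. The nearest unshared peaks were 779 bp from a peak of the other list in the deletion line, inside CG15358, and 125 bp in wild type, inside ome.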

How the data were processed

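ChIP-seq libraries of whole adult flies were single-end, per the labels' protocols, and each genotype's replicates share 1 deposited list in the labels. The submitters' processing notes name cutadapt, Bowtie2 (version 2), Picard and deepTools and the builds dm6 and dm3, without roles. The peak caller and the IDR settings are not given in the sources used here. The scaffold names and the extent of 3R are those of dm6 (Release 6), and a RefSeq gene table of that release was used for genes. It holds no strand or exons, so transcription starts and exons are not given and ends of genes stand in for starts. No genome was used here, so the planned count of promoters with core letters of a dCTCF motif was not made.

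Each deposited list has 20 columns and no header, in the layout of the IDR tool. Fold enrichment was deposited as a ratio, not a logarithm, of the HA signal to the preimmune signal at the peak. Among the deposited columns, −log10 values stand for p-values, q-values and the IDR, and the deposited score (up to 1000) was not used in any result. Interval and summit of every peak were those of the first call set, and no list held overlapping intervals. Only the HA lists were read.

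Shared peaks overlap by 1 bp or more, and pairs are overlapping peaks that are each other's nearest summit. Positions are printed 1-based. Overlaps were checked with bedtools 2.31.1, and overlaps, pairs and width ratios were tested on a copy of the wild-type list with known changes. Python 3.11.15, numpy 2.4.6, pandas 2.3.3, scipy 1.17.1 and matplotlib 3.10.9 were used. Peaks named are, by fold enrichment, the 10 strongest of each list, the 5 strongest of each list without a partner, the 5 pairs with the largest summit distance, any peak over 2 peaks of the other list among the 50 strongest, and peaks at the listed genes, besides those said to be chosen after their values were seen. The members and gene lists were chosen with earlier results of these data known.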

Additional observations from a re-analysis of the deposited data

How the results depend on the processing

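Of 22 alternative values for 6 results, 12 stayed within the 95% interval of the value reported and 10 did not. Only the width ratio has a direction that could turn round, and in each of its alternatives the deletion peaks stayed wider in the median. Sharing was lowest when each peak had to cover at least 50% of the other, with 56.2% of deletion peaks and 55.8% of wild-type peaks, where unequal widths limit the overlap by construction. With a global IDR of 0.01 or better in both lists, 509 of 579 wild-type peaks (87.9%) were shared, from a list that held 627 without this limit. The share of deletion peaks was then 80.4% (501 of 623), which stayed within its interval. Using the stronger 50% of both lists gave shares of 90.1% (deletion) and 89.5% (wild type), a median summit distance of 8 bp and a median width ratio, deletion over wild type, of 2.03. Intervals of the second call set gave a width ratio of 1.63. With both lists cut, a stronger peak whose partner lay in the weaker 50% counted as unshared by construction. Within 1000 bp of a gene end lay 58.1% of deletion and 63.1% of wild-type summits. This limit includes the summits within 200 bp, so these shares could only rise. Apart from these effects of construction, the cause of the shifts was not tested. All overlapping pairs and the chromosome arms alone were alternatives chosen after seeing the data, and their values stayed within the intervals. Single replicates could not be left out, because no file or label ties a column to 1 replicate. Using the second call set in place of the first is the nearest alternative. No paired analysis was possible because the results come from 1 list per genotype and from no test. Without read counts, the depth behind a missing peak is unknown, and binding under the limit of a list was not measured.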
